A study of Mus musculus with 6 samples.

Results

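The genes described here encode the proteins of the cytosolic ribosome. They were chosen by name: a row of the deposited table was taken when its whole name was Rpl or Rps followed by a number, with at most an a, x or y and 1 further digit, or was Rplp0, Rplp1, Rplp2 or Rpsa. Pseudogene names ending in -ps and the Rps6k kinases were left out. The rule found 67 of the 12826 rows, 39 for the large and 28 for the small subunit. The name rule used no measured value. Rps4y2 (current symbol Rps4l) is annotated as a transcribed processed pseudogene in GENCODE M21, so 66 of the 67 rows are protein-coding genes there, and its values are kept because its name meets the rule.

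The libraries came from 3 individual ETX-embryos, A, B and C. They are structures resembling an early embryo, grown in culture by combining mouse embryonic stem cells, trophoblast stem cells and extraembryonic endoderm stem cells, and all of them were made with a line in which GFP reports the T (Brachyury) gene. No treatment was given and no embryo is a control. The trophoblast part was cut off and the embryonic part split lengthwise into a piece without GFP (anterior domain, Side1) and a piece with GFP (posterior domain, Side2), and each piece gave 1 low-input Smart-seq2 library, amplified for 18 cycles. Expression is given as log2(FPKM + 1), FPKM being sequenced fragments scaled by transcript length and by the size of the library. Such a level is per length, and a difference of 1 means 2 times the FPKM. Below, a gene is given by its 3 anterior values in the order A, B, C, then "against" and its 3 posterior values in that order.

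A ribosome is built from ribosomal RNA and one copy of most of these proteins, except the stalk proteins Rplp1 and Rplp2, which are present in several copies. The small subunit decodes the messenger RNA, and the large subunit joins amino acids and releases the chain through an exit tunnel. The protein genes are expressed in all growing cells. Their messenger RNAs mostly begin with a run of C and T, the TOP motif, through which mTOR signalling sets how much they are translated. Loss of 1 copy of several of them causes Diamond-Blackfan anaemia in people, and mouse mutants of Rpl38 and Rpl24 have patterning or pigment defects.

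RefSeq start windows (build GRCm38.p6) were found for 52 of the 67 genes. The windows below show the start in 7 genes on which the results turn, from 25 bases before to 5 bases from the annotated start on, 5′ to 3′, with the run of C and T that covers the start in capitals. The first 3 led the differences between domains or had separate groups, Rps6 and Rpl38 are the mTOR-linked and patterning members, and Rps25 and Rpl41 had the highest levels.
Rps27 (chr3:90213644-90213673, minus strand): aaggaacaggatttccgctttcgCTCCTTT
Rps9 (chr7:3704016-3704045, plus strand): cctcggtccaaccgccttgTCTCTCTTTgt
Rpl14 (chr9:120571492-120571521, plus strand): gcgcacggcagggcgggCCCTCTCTCTTCT
Rps6 (chr4:86857363-86857392, minus strand): gccctgggttaagcggaagtcgggCCTCTT
Rpl38 (chr11:114668555-114668584, plus strand): accgtccggaagcggaagcctcgTTCTTTC
Rps25 (chr9:44407689-44407718, plus strand): gggcttcctttttttccgacatcttagcga
Rpl41 (chr10:128549164-128549193, minus strand): taagggacgacacacgggccggctcggaag
Such a run of at least 5 bases covered the annotated start of 19 of the 52 genes (36.5%) and of 11.8% of the 27025 genes with a window. Bases of the run that lie before the annotated start, outside the annotated transcript, were counted too. These are therefore not counts of messenger RNAs that begin with the TOP motif. In Rps25 and Rpl41 the annotated start is not a C or T. Annotated starts were not measured in these libraries, so a gene without the run here may still carry the motif. Listed starts of 1 gene can also differ: those of Rps24 had runs of 9 and 0 bases. A gene was counted where any of its listed starts had the run. The 19 genes with the run had a median level of 8.69 and the 33 without it 8.97, a difference smaller than the spread within either group. Within the whole window of 300 bases, the ETS-type letters CCGGAAG stood on either strand in 42.3% of the genes, against 9.9% of all genes with a window. The YY1-type letters AAGATGGC stood in 7.7% against 3.2%, and TATAAA in 9.6% against 15.7%. These are matches of letters, not binding sites.

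The number of genes listed above 0 was 9335 to 11082 in the anterior and 10260 to 12141 in the posterior libraries. The files give no read totals, so depth is unknown. An estimate of relative depth from the steps that whole reads leave in low FPKM values was 1, 1.41 and 1.43 against 2.2, 2.82 and 1.56, but it was set aside because only 6.7 to 13.9% of low genes lay on such a step. Within each embryo the posterior library listed more genes, so the number of genes detected and the domain cannot be told apart. T, the reporter gene, followed the labels in embryos A and B, but stood at 5.44 in the library labelled anterior C and was listed at 0 in its labelled posterior partner. The 8 primitive streak markers as a whole did follow the labels: they summed to 0.2 to 7.9 in the anterior and 31.4 to 36.8 in the posterior libraries, and Mixl1 was at 0, 0 and 0 against 5.64, 6.99 and 4.97. Below, "anterior C" and "posterior C" mean the libraries so labelled, and the main results are also given without embryo C. The 10 epiblast markers summed to 22.1 to 42.9 in the anterior and 47.2 to 56.8 in the posterior libraries. The 13 visceral endoderm markers in the table summed to 47.1, 57.1 and 5.3 against 32.1, 43.8 and 32.3, with 9 of them, Ttr and Rbp4 included, at 0 in anterior C. The 8 trophoblast markers in the table summed to 24.2 to 26.3 in the anterior and 24.9 to 34.8 in the posterior libraries, and Elf5 was at 0 in all but posterior A and B. The part of cell mixture and of depth in the values below was not tested. In bulk pieces, fewer cells of a type and less RNA per cell cannot be told apart.

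All 67 genes were above 0 in all 6 libraries, whereas 33.1% of the 10914 genes tested were listed at 0 in at least 1. Their median level was 8.39, 9.11 and 8.85 against 9.01, 8.68 and 9.24, or 334 to 602 FPKM. The median ribosomal protein gene stood at percentile 98.6 to 99.1 of the table, and 58 to 63 of the 67 genes lay in the top 5% of each library. The set was also even: the middle 50% of its genes spanned 1.15 to 1.60 in log2, against 3.18 to 4.59 for all genes in the table. Over the 6 libraries a gene of the set had a median range of 1.30, against 3.03 for all genes tested. The genes tested lay far lower, with a median mean level of 2.98 against 8.85 for the set. No comparison with other genes of like level was made.

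**Figure D1:**
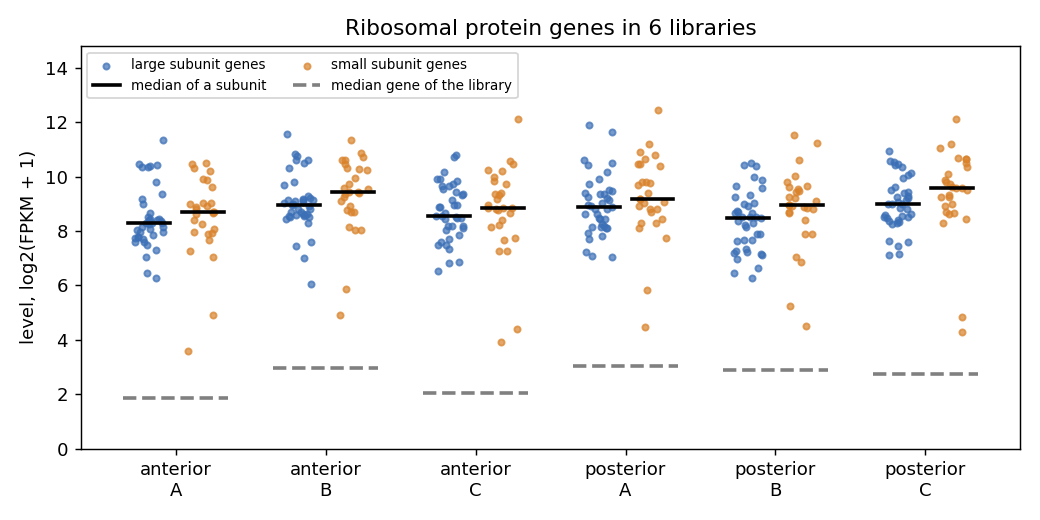
Level in log2(FPKM + 1) of each large (blue) and small (orange) subunit gene in the 6 libraries, 1 point per gene, with the median of each subunit (black) and the median gene of the library (grey dashes). All points lie above the median gene of their library, and the small subunit median lies above the large subunit median in each of the 6 libraries.

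The 8 genes of highest mean level were Rps25, Rpl41, Rplp1, Rps14, Rps27, Rps18, Rpl35 and Rplp2, with means of 10.15 to 11.65. Rps25, a small subunit protein needed for some internal initiation of translation, stood at 10.33, 11.36 and 12.12 against 12.46, 11.53 and 12.10. Rpl41, the shortest ribosomal protein, stood at 11.36, 11.58 and 10.72 against 11.90, 10.37 and 10.14. These 2 genes took the first place in all 6 libraries, Rpl41 in anterior A and B and Rps25 in the other 4. Rps14, a protein of the platform where the messenger RNA leaves the small subunit, was among the steadiest, at 10.50, 10.62 and 10.23 against 10.78, 10.59 and 10.63, a range of 0.55. Only Rpl35a, named after its values were seen, had a smaller range (0.52, from 8.47 to 8.99). Rps18, a protein of the small subunit head, was at 9.92, 10.87 and 10.56 against 10.46, 9.45 and 10.66. Rpl35, at the tunnel exit, was at 9.18, 10.83 and 10.80 against 10.44, 9.99 and 10.42. Neighbours in this order mostly overlap: the means of Rplp1 (10.70), Rps14 (10.56) and Rps27 (10.51) lie closer together than any of them varied over the libraries.

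At the other end, Rps15a and Rps4y2 stood apart from the rest. Rps15a, a protein of the small subunit body, was at 4.91, 4.92 and 4.38 against 4.48, 4.50 and 4.30, a range of 0.62 at a level far below its partners. Rps4y2, the pseudogene entry, was at 3.59, 5.86 and 3.93 against 5.83, 5.25 and 4.82, and was the lowest of the set in anterior A and C. The next, Rpl22, had a mean of 6.73, and Rpl21, Rpl37, Rpl15, Rpl29 and Rpsa had means of 7.01 to 7.82. All but Rpsa belong to the large subunit. Rpl21 was at 7.59, 6.99 and 6.52 against 7.23, 6.26 and 7.45. Rpl37 was at 7.30, 7.44 and 6.86 against 7.09, 7.13 and 7.60. Rpl15, which lies deep in the large subunit, was at 6.47, 7.58 and 7.34 against 7.81, 7.88 and 7.12. Rpl29 was at 7.05, 8.51 and 7.48 against 8.18, 6.64 and 8.33, so that its order between the domains differed by embryo. The longest annotated transcript of Rps15a has 5179 bases, the longest in the set (median 914). Exact copies of stretches of its transcript, counted in windows of 50 bases, occurred in transcripts of 64 other genes in GENCODE M21, although these windows made up only 6.4% of that transcript.

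**Figure D2:**
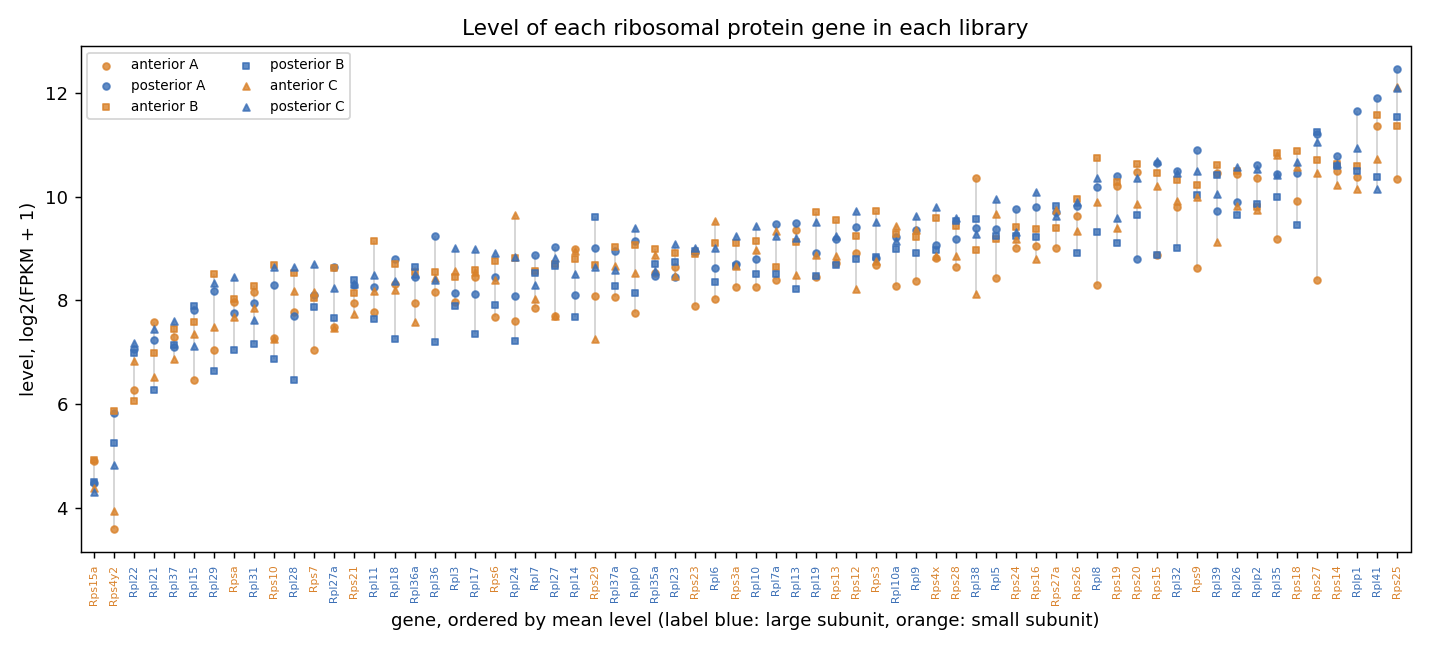
Level in log2(FPKM + 1) of 66 of the 67 genes, ordered from the lowest to the highest mean, with 1 point per library (anterior orange, posterior blue; circle A, square B, triangle C) and a grey line from the lowest to the highest library. Rps15a and Rps4y2 lie at means of 4.58 and 4.88, and the other genes shown have means from 6.73 to 11.65.

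Ribosomal protein genes have many near-identical processed copies, which bears on how reads could be assigned. Over the set, a median of 47.4% of the windows of a transcript (range 0 to 95.1%) also occurred in a transcript of another gene, and in 30 genes the share was above 50%. Rps3 had 3.0% and Rpl8 6.5%, while Rpl35 had 95.1% and Rpl5 93.8%. Across the 67 genes the mean level had a Pearson r of 0.14 and a Spearman rho of 0.02 with this share, and of -0.30 and -0.23 with log2 of the transcript length. These genes share libraries and depth and are not independent replicates. The treatment of reads that map to several places is not stated in the labels, so single-gene levels are uncertain to that extent.

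Small subunit genes were higher than large subunit genes by the median in each of the 6 libraries. The large subunit median stood at 8.28, 8.96 and 8.56 against 8.88, 8.46 and 9.0. The small subunit median stood at 8.70, 9.43 and 8.86 against 9.18, 8.96 and 9.58. Large minus small was therefore -0.42, -0.47 and -0.30 against -0.30, -0.50 and -0.59, a mean of -0.43 ± 0.11 (SD, n = 6 libraries of 3 embryos), and -0.42 without embryo C. The gap by medians had the same sign in both domains, and the anterior and posterior values overlap. By means in place of medians it was smaller, at -0.05, -0.26 and -0.07 against -0.28, -0.46 and -0.36 (mean -0.25). These means include the small subunit genes Rps15a and Rps4y2, whose low levels (4.58 and 4.88 on average) narrow a gap by means. By means the groups did not overlap, with the wider gap in the posterior piece of each embryo. By medians without Rps15a and Rps4y2 it was -0.50. The genes overlap widely, from 6.73 to 11.01 in mean level for the large and 4.58 to 11.65 for the small subunit. Subunit genes are not replicates of a subunit, so no test is given.

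The comparison between domains asks whether the ribosomal protein genes differed between posterior and anterior cells, and the answer varied by embryo. In embryo A 53 of 67 genes were higher in the posterior library (as were 67.8% of all genes tested), with a median difference of 0.54. In embryo B this held for 13 (and for 50.8% of all genes), with a median difference of -0.61. In embryo C it held for 52 (and for 53.6% of all genes), with a median of 0.50. Embryo B thus ran against the other 2, and 33 of the 67 genes (49.3%) were higher in the posterior library of A and C and lower in that of B, against 15.3% of all genes tested. Posterior B was also the library with the most genes above 0 (12141), and the part of that in this pattern was not tested.

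**Figure D3:**
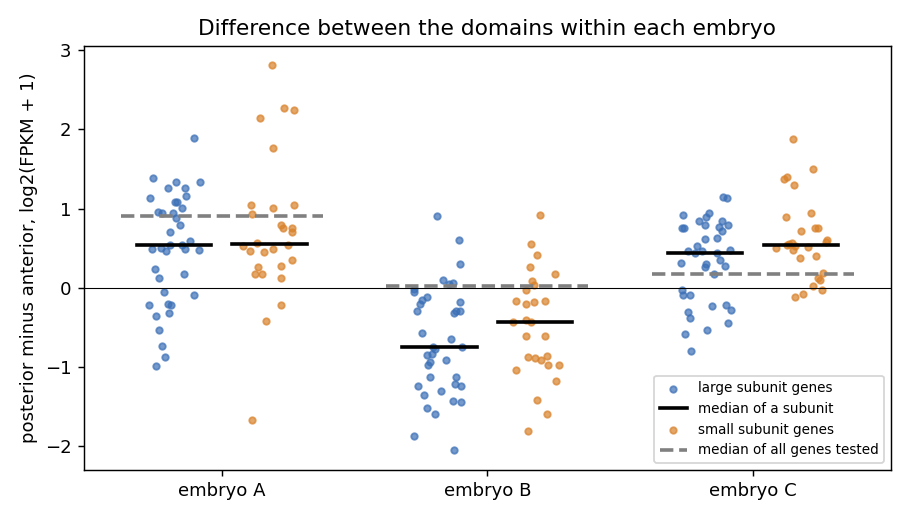
Posterior minus anterior difference in log2(FPKM + 1) within embryos A, B and C for large (blue) and small (orange) subunit genes, 1 point per gene, with subunit medians (black) and the median of all genes tested (grey dashes). Both subunits have medians above 0 in A and C and below 0 in B (-0.74 and -0.43). Both medians lie below the grey dashes in A and B and above them in C. Relative to the median gene of each library, a scale not drawn here, the set's median lies below 0 in all 3.

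Over the 3 embryos no ribosomal protein gene passed the test between the domains. With limma, fitted to all 10914 genes with the embryo as a block, none of the 67 passed an adjusted p of 0.05 (0% of all genes did), and none had an unadjusted p under 0.05, against 8.03% of all genes (7.24% higher in the posterior and 0.788% in the anterior domain). The smallest adjusted p in the set was 0.618, and standard errors had a median of 0.59 on the log2 scale. Both come from moderated variances, in which each gene is drawn towards a trend over all genes (2 residual and 7.5 prior degrees of freedom). The standard errors given here thus do not measure the spread among the 3 embryos of that gene alone. On average 43 of the 67 genes (64.2%) were higher in the posterior domain, close to the 64.9% of all genes, with a median difference of 0.15, against 0.43. For the large subunit it was 22 of 39 genes and a median of 0.02, and for the small subunit 21 of 28 and 0.23. Large minus small of the embryo differences was -0.02, -0.31 and -0.10 in A, B and C. The direction depends on the scale: relative to the median gene of each library, the set's median was lower in the posterior library by 0.55, 0.37 and 0.32 in A, B and C. That median gene is taken over all rows, those listed at 0 included, and stood at 1.86, 2.97 and 2.04 against 3.03, 2.9 and 2.75. Relative to it 9 of 67 genes were higher in the posterior domain on average. Without embryo C it was 32 of 67 genes, with a median difference of -0.05 on the original scale. The sign of the average difference of the set was thus set by the scale and by which embryos entered.

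Of the 67 genes, 9 had the higher value on the posterior side in all 3 embryos (13.4%, against 21.5% of all genes) and 4 on the anterior side (5.97%, against 8.25%). In 3 genes, Rps27, Rpl22 and Rps21, all posterior values lay above all anterior ones (4.48%, against 12.3% of all genes), and in 1, Rpl14, the reverse (1.49%, against 3.77%). Relative to the median gene the average difference of Rps21 turned from 0.40 to -0.21, that of Rpl22 went from 0.68 to 0.08, and that of Rps27 from 1.32 to 0.72. These 4 shares are below those of all genes, and the genes that follow are given as the leading values, not as calls. Adjusted p-values from limma ran from 0.618 to 0.846 for the 12 leading genes.

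Rps27 had the smallest p. It encodes a zinc-finger protein of the small subunit, and lies on chromosome 3 (90212522 to 90213651, minus strand). It stood at 8.39, 10.70 and 10.46 against 11.20, 11.25 and 11.06, so anterior A was far below the other 5. The anterior mean was 9.85 ± 1.27 and the posterior mean 11.17 ± 0.10 (SD, n = 3), a difference of 1.32 ± 0.62 (SE, limma adjusted p 0.618). Without embryo A the difference was 0.57, and without embryo C 1.68. Windows of its transcript were shared with 9 other genes (63.1% of windows).

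Rps29, a small zinc-binding protein of the small subunit head and a Diamond-Blackfan gene (chromosome 12, 69157722 to 69159186), was at 8.08, 8.68 and 7.26 against 9.01, 9.60 and 8.64, higher in the posterior library of each embryo, although posterior C lay just under anterior B. The difference was 1.08 ± 0.56. Rps9, at the messenger RNA entry (chromosome 7, 3703993 to 3706897), was at 8.63, 10.23 and 9.99 against 10.90, 10.03 and 10.50, so that embryo B did not share the direction. Rpl27 was at 7.69, 8.69 and 7.70 against 9.03, 8.67 and 8.82, with anterior A and C about 1 unit under the other 4. For Rps25 (0.76 ± 0.58) the low library was again anterior A, and without embryo A the difference was 0.08. Rplp1, an acidic stalk protein, was at 10.38, 10.59 and 10.15 against 11.64, 10.49 and 10.94.

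Rpl14 led the genes higher in the anterior domain. It lies on chromosome 9 (120571444 to 120574654) and encodes a large subunit protein on the solvent side. It was at 8.98, 8.79 and 8.95 against 8.11, 7.67 and 8.51, so the groups did not overlap, and the difference was -0.81 ± 0.57 (limma adjusted p 0.696), or -0.99 without embryo C. Rps20, a small subunit head protein, was at 10.47, 10.62 and 9.85 against 8.80, 9.65 and 10.36, with embryo C going the other way. Rpl24, a protein that forms a bridge between the subunits, was at 7.60, 8.81 and 9.64 against 8.09, 7.21 and 8.84, and had one of the widest ranges of the set (2.43). Rpl31, at the tunnel exit, was lower in the posterior library of each embryo (8.16, 8.28 and 7.85 against 7.94, 7.16 and 7.62), with anterior C below posterior A. Rpl28 was at 7.78, 8.52 and 8.18 against 7.69, 6.47 and 8.64, and its difference of -0.56 ± 0.68 rested on embryo B: without B it was 0.18. Rpl41 differed by -0.42 ± 0.55, and without embryo B by -0.02.

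**Figure D4:**
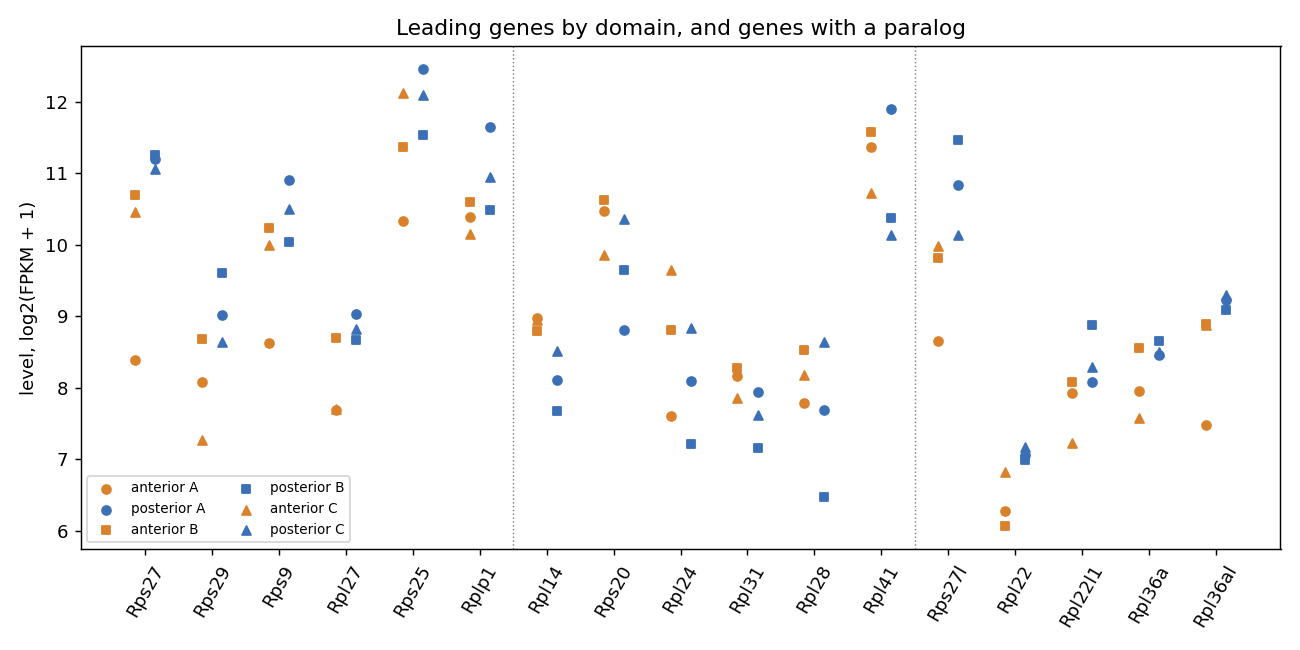
Level in log2(FPKM + 1) of the 6 genes with the smallest p for a higher posterior level (left of the first dotted line), the 6 for a higher anterior level (middle), and Rps27l, Rpl22, Rpl22l1, Rpl36a and Rpl36al (right), with 1 point per library (anterior orange, posterior blue; circle A, square B, triangle C). Rps27 and Rps27l are both lowest in anterior A (8.39 and 8.65), and the Rpl14 groups do not overlap.

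By role in the ribosome, none of the groups below held a gene that passed, and relative to the median gene the stalk, tunnel, entry, decoding and exit groups and the Rpl5 and Rpl11 pair all had medians below 0. After quantile normalization and relative to the upper quartile gene, the stalk, entry, decoding and exit groups had medians above 0. The tunnel group and the Rpl5 and Rpl11 pair had medians below 0 on both of those scales. The stalk of the large subunit recruits elongation factors, and all 3 of its genes in the set were higher on average in the posterior domain, by a median of 0.44, whereas 1 of 3 was relative to the median gene. Rplp0, the stalk base, was at 7.75, 9.07 and 8.53 against 9.14, 8.14 and 9.39. Rplp2 was at 10.35, 9.79 and 9.74 against 10.60, 9.86 and 10.54, higher in the posterior library of each embryo by 0.06 to 0.80. None of the 3 passed (smallest limma adjusted p 0.739).

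Rpl5 and Rpl11 bind the small ribosomal RNA of the large subunit and, when free, bind Mdm2 and so stabilise p53. Rpl5, higher in the posterior library of each embryo, was at 8.42, 9.19 and 9.67 against 9.37, 9.24 and 9.96. Rpl11 was at 7.77, 9.14 and 8.18 against 8.26, 7.63 and 8.49, with differences of 0.43 ± 0.55 and -0.23 ± 0.64. The average differences had opposite signs, although relative to the median gene both were below 0, and neither passed. For Rpl11 the sign rested on embryo B: posterior minus anterior was 0.49, -1.51 and 0.32 in A, B and C. Of 7 genes that line the exit tunnel or its rim, 2 were higher in the posterior domain on average (median -0.04). Both genes at the messenger RNA entry (Rps3 and Rps9), both at the decoding site (Rps15 and Rps23) and 3 of 4 at the exit were higher. The medians were 0.43, 0.30 and 0.33, which became -0.17, -0.30 and -0.27 relative to the median gene. After quantile normalization they were 0.18, 0.05 and 0.07, and relative to the upper quartile gene 0.14, 0.01 and 0.04. None of these genes passed.

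Rps6, the target of the S6 kinases downstream of mTOR, was at 7.67, 8.76 and 8.39 against 8.45, 7.90 and 8.92. Its difference was 0.15 ± 0.61. Rpsa, which also has a role as a laminin-binding protein, was at 7.96, 8.02 and 7.68 against 7.75, 7.04 and 8.44. Rpl38, required in the mouse embryo for translation of some Hox messenger RNAs, was at 10.36, 8.96 and 8.12 against 9.39, 9.56 and 9.27, so the anterior libraries spread over 2.24 and the posterior ones lay between them. Rps19, the most frequent Diamond-Blackfan gene, was at 10.21, 10.28 and 9.39 against 10.39, 9.10 and 9.58. Of the 11 Diamond-Blackfan genes in the set, 6 were higher in the posterior domain (median 0.20; 1 of 11 relative to the median gene) and none passed, with a smallest limma adjusted p of 0.639 for Rps29. Of 5 genes with patterning or pigment mutants in mouse, among them Rpl38, Rpl24 and Rps20, 2 were higher (median -0.27), and none passed. Relative to the median gene none of the 5 was higher (median -0.87). On that scale 2 had an unadjusted limma p under 0.05, higher in the anterior domain, as did 392 of the 10914 genes tested. As deposited, after quantile normalization and relative to the upper quartile gene, 0 of the 5 had such a p.

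Of the X-linked genes Rps4x, Rpl10, Rpl36a and Rpl39, 3 were higher in the posterior domain on average and none of the 4 was relative to the median gene. Rps4x was at 8.81, 9.58 and 8.85 against 9.07, 8.97 and 9.79. Rpl10, which completes the large subunit late in assembly, was at 8.25, 9.15 and 8.96 against 8.79, 8.50 and 9.44. Both were lower in posterior than in anterior B, like most of the set. Rpl39, a short protein of the tunnel wall, was at 10.45, 10.60 and 9.13 against 9.72, 10.41 and 10.04, and had a difference of -0.01 ± 0.57. Rpl36a was at 7.95, 8.55 and 7.58 against 8.45, 8.65 and 8.50, higher in the posterior library of each embryo.

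Between the 3 individuals, too, no gene of the set passed. With limma's F test among embryos none of the 67 genes passed (0% of all genes did), and none had an unadjusted p under 0.05, against 2.77% of all genes. The smallest p values belonged to Rpl24, Rpl41, Rps29, Rps27, Rpl38 and Rpl5 (adjusted p 0.996 each). Averaged over both pieces, Rpl24 was at 7.85, 8.01 and 9.24 in A, B and C and Rpl41 at 11.63, 10.98 and 10.43. Rpl24 was thus highest and Rpl41 lowest in embryo C, but the 2 pieces of 1 embryo differed about as much: posterior minus anterior in embryo B was -1.59 for Rpl24 and -1.21 for Rpl41.

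Several ribosomal protein genes stand in the table only joined to a neighbour, and the name rule leaves them out. There are 10 such entries, mostly with a small nucleolar RNA (snoRNA) that lies inside the gene, and 7 were higher in the posterior domain on average (median 0.40), or 3 relative to the median gene. Of the 10, 1 had an unadjusted p under 0.05, higher in the posterior domain (7.24% of all genes did), and none passed the adjusted threshold with limma. In a joined entry the protein gene and its neighbour cannot be told apart. Within the set, 21 genes hold an annotated snoRNA, with a median level of 8.93, and the median of the other 46 was 8.73.

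Paralogs outside the name rule differed in how close they lay to the genes they resemble. Rps27l, a paralog of Rps27 and a p53 target, was at 8.65, 9.81 and 9.98 against 10.83, 11.46 and 10.13. The groups did not overlap, anterior A was again the lowest, and the difference was 1.32 ± 0.59 (unadjusted p 0.0499, limma adjusted p 0.617). Rps27 minus Rps27l stayed between -0.26 and 0.93 over the 6 libraries. Rpl22l1, the paralog of Rpl22, was the higher of that pair in every library. Rpl22 was at 6.27, 6.06 and 6.82 against 7.06, 6.98 and 7.17, and Rpl22 minus Rpl22l1 ran from -2.02 to -0.41. Rpl22l1 itself was at 7.92, 8.08 and 7.23 against 8.08, 8.88 and 8.29. Rpl36al was above Rpl36a in all libraries except anterior A, at 7.48, 8.89 and 8.88 against 9.23, 9.09 and 9.29. These 3 paralogs were higher in the posterior library of each embryo, and the average direction held relative to the median gene. Rpl7l1, named after its values were seen, lay far below Rpl7: it was at 4.89, 5.16 and 5.67 against 5.68, 5.31 and 6.29, where Rpl7 was at 7.86, 8.57 and 8.03 against 8.88, 8.52 and 8.30. Fau, whose protein is made as a fusion with a ubiquitin-like protein, was lowest in posterior B, at 9.84, 9.79 and 8.96 against 9.69, 8.02 and 9.75. The table's Gnb2l1 (current symbol Rack1), a scaffold on the small subunit, was at 8.29, 9.91 and 9.62 against 10.04, 8.73 and 9.36, and neither passed.

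The genes that build and regulate ribosomes had larger median differences than the ribosomal proteins, without a call. Of 55 assembly factors tested, 44 were higher in the posterior domain on average (median 0.94), as were 64.9% of all genes (median 0.43). With limma 10 had an unadjusted p under 0.05, all higher in the posterior domain (7.24% of all genes did), and none passed the adjusted threshold. Relative to the median gene 34 of 55 were higher, with a median of 0.34 (-0.17 for all genes). On that scale 4 had an unadjusted limma p under 0.05, higher in the posterior domain, as did 367 of the 10914 genes tested. Without embryo C 42 of 55 were higher, with a median of 0.95 (0.48 for all genes). Nop16, a nucleolar factor of the large subunit, was at 0.92, 4.93 and 3.96 against 6.54, 6.22 and 6.74. Utp15, a factor of the small subunit processome, was at 0.84, 2.55 and 0.63 against 4.39, 5.09 and 4.58. In both genes all posterior values lay above all anterior ones. Dcaf13, another processome factor, was at 0.59, 5.50 and 0.77 against 5.03, 5.46 and 7.24, with anterior B above posterior A and B and below posterior C. These factors had a median level of 4.84, far below the ribosomal proteins, and 4 of them were at 0 in anterior A, the library with the second fewest genes. The part of that in the differences was not tested.

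For RNA polymerase I and its factors, which transcribe the ribosomal RNA, 13 of 15 genes were higher in the posterior domain (median 1.08, and 0.48 relative to the median gene). Of all genes 64.9% were higher, with medians of 0.43 and, relative to the median gene, -0.17. Ubtf, which opens the ribosomal DNA for transcription, was at 3.17, 2.02 and 2.04 against 5.01, 3.46 and 5.11. Polr1e, a subunit of the enzyme, was at 0, 1.26 and 0 against 2.49, 3.02 and 2.56, and Polr1c, shared with RNA polymerase III, at 2.31, 5.36 and 6.19 against 6.08, 6.50 and 6.63. Of 18 genes of mTOR and TOP regulation, 16 were higher (median 0.98, and 0.38 relative to the median gene). Eif4ebp1, a translation repressor that mTOR inactivates, was at 4.37, 7.52 and 6.10 against 8.98, 7.71 and 8.41, and Deptor, an mTOR inhibitor, at 0.58, 0.59 and 3.39 against 4.83, 4.14 and 5.40. Mlst8, a core subunit of the mTOR complexes, was at 0, 0.65 and 0.31 against 2.38, 1.46 and 1.78. Both lists lay low, with median levels of 4.34 for the polymerase and 3.51 for the mTOR list. Polymerase genes listed at 0 numbered 2, 0 and 1 against 0, 0 and 1. Among the 19 mTOR genes in the table they numbered 2, 1 and 4 against 0, 0 and 1. The part of that in the differences was not tested. Each of these 2 lists had 2 genes at an unadjusted p under 0.05, higher in the posterior domain (7.24% of all genes did), and none passed the adjusted threshold. Under the 3 other scalings the polymerase list had 0 such genes and the mTOR list 2. Of all 10914 genes tested, such genes numbered 367 relative to the median gene. They numbered 513 after quantile normalization and 555 relative to the upper quartile gene. The 20 tested genes whose messenger RNAs carry the TOP motif but encode other proteins, mostly translation factors, stood near the ribosomal proteins instead, with 14 higher in the posterior domain, a median of 0.17 (-0.43 relative to the median gene), and medians of 0.91, -0.42 and 0.24 by embryo. Eif3l, a subunit of an initiation factor, was at 4.95, 5.72 and 6.60 against 6.86, 6.45 and 7.39, a difference of 1.14 ± 0.68 (limma adjusted p 0.661). Btf3 differed by 0.92 ± 0.62 and Eif3k by 0.96 ± 0.70. No difference between these lists was tested.

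The 67 genes made up 9.06%, 9.61% and 7.69% of the summed FPKM of the table against 8.95%, 6.85% and 8.75%. Anterior libraries had a mean of 8.79 ± 0.99% and posterior ones of 8.18 ± 1.16% (SD, n = 3). Posterior minus anterior was -0.10, -2.77 and 1.06 percentage points in A, B and C, so the spread among embryos was larger than the mean of -0.60, and without embryo C the mean was -1.43. Large subunit genes took 5.14, 5.03 and 3.9% against 4.47, 3.23 and 4.13%. Small subunit genes took 3.92, 4.58 and 3.79% against 4.49, 3.62 and 4.62%, although the small subunit has fewer genes in the set. By this share the large subunit was ahead in each anterior library and the small subunit in each posterior one. The gap was slight in anterior C and posterior A, and the pattern was not tested. In posterior A, the 3 highest genes held 23.4% of the set's sum, against 14.9 to 19.6% in the other libraries.

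**Figure D5:**
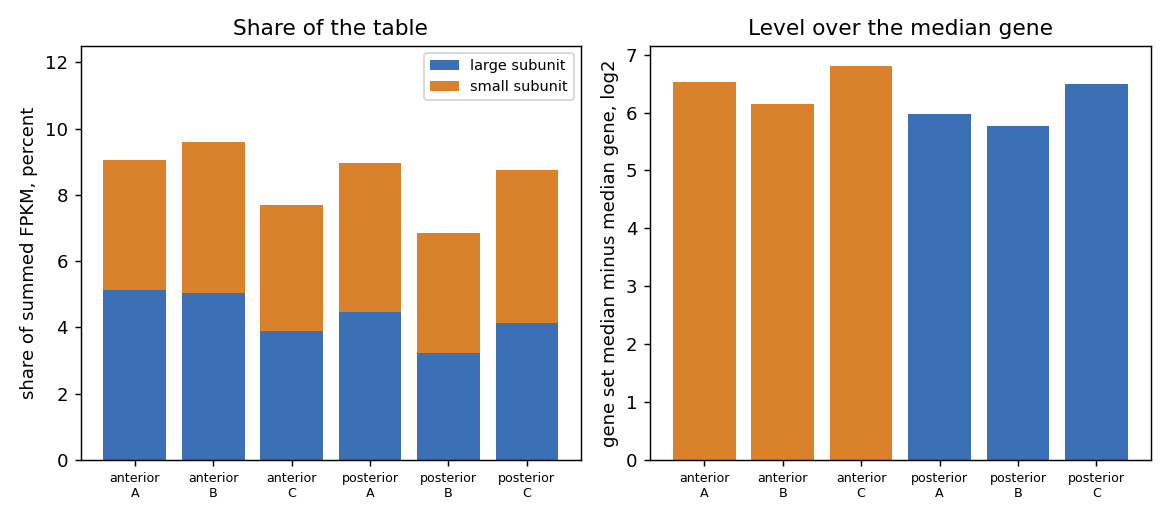
Left: percent of the summed FPKM of the table held by large (blue) and small (orange) subunit genes in each library. Right: median of the 67 genes minus the median gene of the library in log2 (anterior orange, posterior blue). The share is lowest in posterior B (6.85%), and the right-hand bars run from 5.77 to 6.81, lower in the posterior library of each embryo.

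Among 5583 other genes averaging 10 FPKM or more, the 5 whose level relative to the median gene followed the mean of the set most closely over the 6 libraries were Zfp780b (r = 0.997), Mapk3 (0.991), Tlk1 (0.991), Arl6ip4 (0.990) and Pebp1 (0.989). With 6 libraries and so many genes compared, this is a description, and the points share library depth. The same library median was also subtracted from each gene and from the set, which by itself raises r. As deposited, the mean of the set was at 8.48, 9.14 and 8.72 against 9.07, 8.55 and 9.17, and r on that scale was not computed. Mapk3, which encodes the kinase ERK1, was at 6.05, 6.14 and 6.54 against 5.35, 4.13 and 6.50, lowest in posterior B.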

How the data were processed

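RNA of 6 libraries, an anterior and a posterior piece of 3 ETX-embryos, was read as deposited. Per the labels' protocols, HTSeq-count was run on reads aligned to mouse Ensembl 38.77. TopHat2 (2.0.4), Cufflinks (2.0.2) and mm10 are listed in the submitters' processing notes. Any further normalization was not stated there. The deposited values are log2 values from the authors, read as log2(FPKM + 1), since undoing that transform on values above 3 left at most 6 significant digits in nearly all entries. Absolute depth is unknown. The 10914 genes averaging 1 FPKM or more were fitted with limma 3.58.1 in R 4.3.3 (embryo as a block, mean-variance trend, two-sided, Benjamini-Hochberg, threshold 0.05, 2 residual and 7.5 prior degrees of freedom), tested on simulated data. The pairing rests on the dissection, since both pieces come from 1 individual. Deviations of paired pieces correlated at -0.07, 0.04 and -0.03 in A, B and C. The genes and lists were chosen with earlier results of these data known. Named by rule were the 8 highest and 8 lowest genes by mean, 6 per direction by p, 6 among embryos, 14 fixed genes, the paralogs and up to 3 genes per other list. Rpl35a, Rps3, Rpl8, Rps21, Rpl7 and Rpl7l1 were named after their values were seen. Positions are from GENCODE M21 (GRCm38), start windows from RefSeq. Alternatives covered pseudocount, filter, scaling, block, trend and left-out libraries. A few single-gene results are not reported here.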

Additional observations from a re-analysis of the deposited data

How the results depend on the processing

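No ribosomal protein gene passed the adjusted threshold under any of the 14 alternatives to the fit. Relative to the median gene, 5 had an unadjusted limma p under 0.05 (Rpl14, Rpl24, Rpl41, Rps18 and Rps20, lower in the posterior domain), as did 759 of all 10914 genes. After quantile normalization 2 did (Rpl14 and Rps27), and 828 of all 10914 genes. With no block and without anterior C 2 did (Rps25 and Rps27), and 1146 of all 10943 genes. Scaling set the direction of the set. Its median difference of 0.15 became -0.45 relative to the median gene, -0.17 after quantile normalization and -0.14 relative to the upper quartile gene, with 9, 24 and 25 genes higher in the posterior domain in place of 43. Leaving out 1 embryo gave -0.06 to 0.49, and 0.15 with no replicate block. The median difference of all genes, 0.43, became -0.17, -0.06 and 0.14 under these scalings, in that order. Over all genes, unadjusted calls split 790 to 86 (posterior to anterior), and 367 to 392, 513 to 315 and 555 to 189 under these 3 scalings. Adjusted calls between domains numbered 0 to 25 with 1 embryo left out and 1 with no block and without anterior C. Among embryos they numbered 3 with no filter, 3 relative to the median gene, 3 after quantile normalization and 2 to 34 with 1 embryo left out. Large minus small moved from -0.43 to -0.25 by means. Without the 2 lowest genes it was -0.50 by medians, and with joined entries it was -0.39, both chosen after seeing the data. The share of summed FPKM differed by -1.43 to 0.48 points with 1 embryo left out, positive without B. Among the 12 leading genes the sign turned for Rpl28, which was at 0.18 without embryo B (-1.07 to 0.18 with 1 embryo left out). Sizes were less stable: relative to the median gene Rplp1 went to 0.05, Rps25 to 0.16 and Rpl27 to 0.22, and without embryo A Rps9 went to 0.15. The cause was not tested. A pseudocount or mean over genes does not apply to the share.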
